A study of Mus musculus with 4 samples.

Results

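The genes that build the actin and tubulin cytoskeleton were followed in a mouse macrophage cell line. They were chosen by a rule on symbols that used no measured value, although earlier results of these data were known. The rule took in the actins, the alpha-actinins, the Arp2/3 complex, profilins, cofilins and thymosins, capping protein and gelsolin, the type 1 coronins and tropomyosins. It also took in myosin heavy and light chains, the unconventional myosins, the alpha-, beta- and gamma-tubulins, and vimentin. The choice took 91 of the 40213 gene symbols in the deposited tables. A further 8 lists of genes that regulate or bind these proteins were counted beside them.

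RAW264.7 cells, an established mouse macrophage line, had attached to the plate before they were exposed to a hydrogel, and RNA was taken 48 h later. Library titles gave the groups, Gel (n = 2 libraries) and CuNZ@Gel (n = 2 libraries). Gel is taken to be the hydrogel alone and CuNZ@Gel the hydrogel that carries CuNZ, a name the labels leave unexplained. Only CuNZ@Gel appears in the treatment text, so that what the Gel cells received rests on the titles, and no label describes cells without any gel. All libraries share the cell line and the time, and nothing states that replicates were separate cultures, so p-values cover only how far these libraries vary, perhaps for technical reasons alone. The comparison asks how CuNZ in the gel changed the cells' transcripts, and the series title places it in research on wound healing in diabetes with a nanozyme-loaded gel.

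Actin monomers assemble into branched networks when the Arp2/3 complex nucleates a new filament on the side of an old one, and into unbranched bundles through other nucleators. Profilin, thymosin and cofilin control the pool of monomers and the turnover of filaments, and myosins pull on filaments or carry cargo along them. Microtubules are hollow polymers of alpha- and beta-tubulin dimers that start from gamma-tubulin. In macrophages, actin drives phagocytic cups, ruffles and podosomes, while microtubules position organelles and carry vesicles.

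Tubulin isotypes differ little in coding sequence, which bears on how reads are shared among them. Tubulin transcripts are also known to be regulated through the start of their own coding sequence, which encodes the residues that the factor TTC5 binds as they leave the ribosome. The first 30 coding bases of each tested alpha- and beta-tubulin for which they may be shown, and of the tested actins for comparison, are therefore printed 5′ to 3′ from GENCODE vM21 transcripts, with the first 12 in capitals.
Tuba1a: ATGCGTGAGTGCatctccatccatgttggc
Tuba1b: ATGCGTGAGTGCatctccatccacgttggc
Tuba1c: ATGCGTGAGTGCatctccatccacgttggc
Tuba4a: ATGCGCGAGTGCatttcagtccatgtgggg
Tubb2a: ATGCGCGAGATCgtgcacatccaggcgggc
Tubb2b: ATGCGAGAGATCgtgcacattcaggcgggc
Tubb4a: ATGCGGGAAATCgtgcacctgcaagccggt
Tubb4b: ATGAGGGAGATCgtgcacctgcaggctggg
Tubb5: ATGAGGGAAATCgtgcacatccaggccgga
Actb: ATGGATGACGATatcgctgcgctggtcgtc
Actg1: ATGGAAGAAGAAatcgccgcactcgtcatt
Acta2: ATGTGTGAAGAGgaagacagcacagccctg
Tuba1b and Tuba1c differed at 0 of these 30 bases, Tuba1a and Tuba1b at 1, and Tuba1a and Tuba4a at 6. Among the beta-tubulins, Tubb4b and Tubb5 differed at 5 bases and Tubb2a and Tubb2b at 2. Actb and Actg1, the cytoplasmic actins, differed at 8, and Acta2 differed from them at 18 and 17.

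Levels are given as scaled CPM, CPM divided by 1 further factor per library, and are not divided by transcript length unless a sentence says per kilobase. Recovered library totals ran from 13717000 to 14880000 reads. A gene was tested with limma if it reached 1 scaled CPM in at least 2 libraries, and it is said to have risen or fallen where the p adjusted by the Benjamini-Hochberg method over all 11588 tested genes was under 0.05. Changes are CuNZ@Gel minus Gel on the log2(scaled CPM + 1) scale. On this scale genes at low levels show less than their full change. All 9 macrophage markers were tested, with 7 raised and 1 lowered, where 32.2% and 34.8% of all tested genes were. Their summed level was 5266 to 5447 scaled CPM in Gel and 8523 to 8789 in CuNZ@Gel. Lyz2 alone went from a mean of 3079 scaled CPM in Gel to 5888 in CuNZ@Gel. Cd68 fell by 0.23, and after the length correction its change was 0.05 (adjusted p = 0.399). Spi1 did not pass (-0.08, adjusted p = 0.267), and after the length correction it was raised (0.17). The other marker lists had summed levels of at most 2.84 scaled CPM in every library, except the osteoclast list, whose markers macrophages share (632 to 649 in Gel and 676 to 686 in CuNZ@Gel, with Calcr at 0). Of 5 tested osteoclast markers 3 rose and 2 fell. The changes were 2.25 for Dcstamp, 1.44 for Ocstamp, 0.22 for Ctsk, -0.56 for Acp5 and -0.72 for Atp6v0d2. Ocstamp, at 0.435 and 0.0777 scaled CPM in Gel, passed the filter only through CuNZ@Gel, so it could be called only as raised. The endothelial marker Pecam1 passed the filter only through CuNZ@Gel, where it was higher (1.37), and the neuronal marker Syp only through Gel (-0.60, and after the length correction -0.45, adjusted p = 0.0664). No epithelial marker passed the filter. In bulk RNA, fewer cells of a type and less RNA per cell cannot be told apart.

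More of the cytoskeletal genes rose than fell. Of 61 tested genes, 35 rose (57.4%) and 11 fell (18.03%), while 15 did not pass the test. Of all tested genes 67.1% passed, 32.2% as raised and 34.8% as lowered. The median change was 0.25 for the 61 genes and -0.03 for all tested genes. In a test against a minimum fold of 1.5, 13 were raised and 2 lowered, against 8.76% and 8.11% of all tested genes. The raised genes in that test were Tuba1a, Tuba1c, Tuba4a, Tubb2a, Tubb6, Acta2, Actn1, Gsn, Myh9, Myo18a, Myo6, Myo7b and Myo5c, and the lowered genes were Arpc5l and Coro1a. The scaling moved this split. With libraries scaled by total reads only, the median change of all tested genes shifted by 0.18, and 45 of the 61 rose and 5 fell, against 43.2% and 24.8% of all tested genes. Of the raised genes, 4 passed the filter only through the CuNZ@Gel libraries (Acta2, Myo5c, Myo6 and Myo7b). Since they could pass only by being higher there, the counts were also made without them: 31 of 57 tested genes rose, the median change was 0.22, and 9 were raised and 2 lowered in the test against a minimum fold. Together the 91 genes took 1.56% and 1.53% of the reads in the Gel libraries and 1.92% and 1.94% in the CuNZ@Gel libraries.

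**Figure D1:**
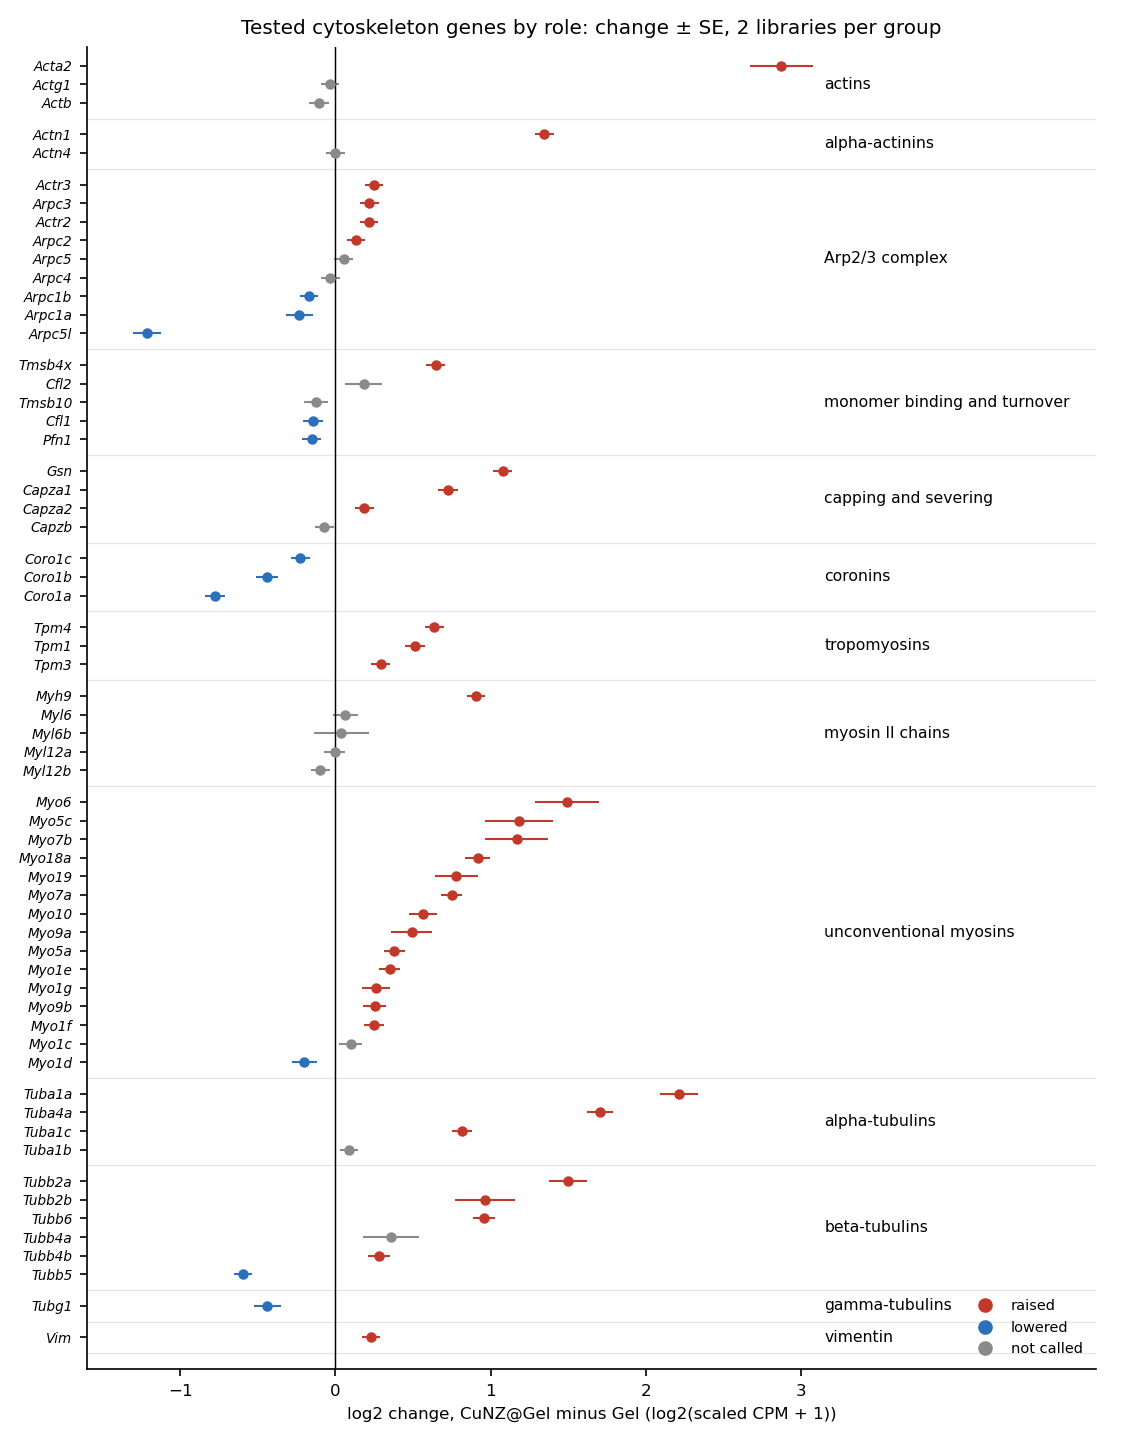
Log2 change of each tested cytoskeletal gene (horizontal axis, CuNZ@Gel minus Gel on the log2(scaled CPM + 1) scale) with its standard error, grouped by role. Tubulins and unconventional myosins lie mostly to the right of 0, the coronins to the left, and Acta2 is farthest right at 2.87.

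Transcript length moved with the changes. Pearson's r between a gene's change and its log2 transcript length was 0.30 over 10898 tested genes and 0.26 over the 61 cytoskeletal genes. These are descriptions, since genes of the same libraries are not independent. When each library was corrected for transcript length and GC content, the r of the cytoskeletal genes was -0.03. In that fit 39 of the 61 rose and 8 fell, against 30.1% and 35.6% of the 10898 genes with a transcript, and the median changes were 0.28 and -0.04. Changes after this correction are given below where they alter the call of a gene that is named with its test.

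**Figure D2:**
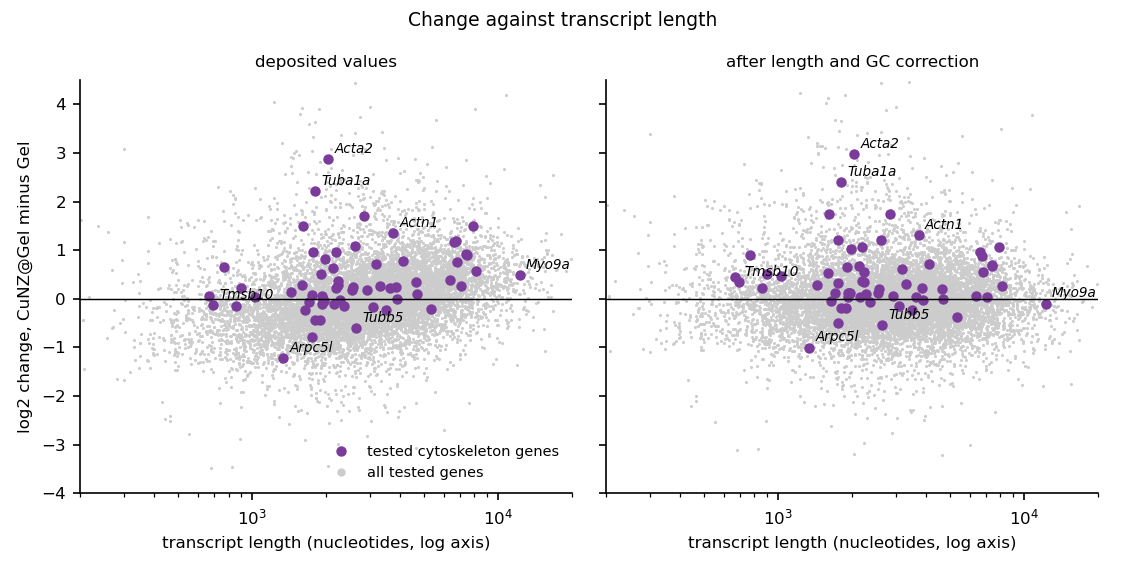
Log2 change against transcript length (log axis) before and after correction of each library for length and GC content, with all tested genes in grey and the cytoskeletal genes in colour. The cytoskeletal genes' correlation with length went from 0.26 to -0.03.

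Alpha-tubulin transcripts rose and their makeup shifted. Of 4 tested alpha-tubulin genes 3 rose, where 32.2% of all tested genes rose. The fourth passed the test after the length correction and with total reads only. Tuba1a, an isotype known for its part in neuronal development, was at 6.59 and 7.09 scaled CPM in the Gel libraries and 33.3 and 37.5 in the CuNZ@Gel libraries. Its mean rose from 6.84 ± 0.350 to 35.4 ± 2.96 (SD, n = 2 per group), a 5.18-fold difference, with a log2 change of 2.21 (SE 0.12, limma adjusted p = 1.26e-12). Both CuNZ@Gel libraries lay far above both Gel libraries. Tuba4a, an isotype of the alpha family abundant in platelets and brain, was at 36.9 and 34.7 scaled CPM in Gel and 109 and 129.5 in CuNZ@Gel, 3.33-fold higher (log2 change 1.70, adjusted p = 3.01e-13). Tuba1c was at 209 and 198 scaled CPM in Gel and 339.9 and 378 in CuNZ@Gel, 1.76-fold higher (log2 change 0.81, adjusted p = 5.27e-10). For both genes each CuNZ@Gel library was above each Gel library. Groups lay apart like this, in either direction, in 55 of the 61 cytoskeletal genes. Actb and Actg1, which did not pass the test, were among them. How often this happened over all genes was not counted, so here and below it adds little to a gene's test. Tuba1b, the alpha-tubulin with the highest level per kilobase here, was at 484 and 455 scaled CPM in Gel and 486 and 512 in CuNZ@Gel. Its log2 change of 0.09 did not pass the test (adjusted p = 0.2), while the length-corrected change was 0.32 (adjusted p = 6.16e-06).

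The beta-tubulins moved in opposite directions. Tubb5, the main beta-tubulin of most dividing cells, was at 807 and 771 scaled CPM in Gel and 530.2 and 513 in CuNZ@Gel. It fell 1.51-fold, from 789 ± 25.2 to 522 ± 11.8, with a log2 change of -0.60 (SE 0.06, limma adjusted p = 1.40e-08). It was the only one of the 6 tested beta-tubulins to fall, and it kept the highest level per kilobase in every library. Tubb6 was at 63.1 and 60.5 scaled CPM in Gel and 122 and 119.6 in CuNZ@Gel, 1.96-fold higher (log2 change 0.96, adjusted p = 1.63e-10). Tubb2a was at 8.0005 and 8.62 in Gel and 26.3 and 24.3 in CuNZ@Gel, 3.05-fold higher (log2 change 1.4990, adjusted p = 7.92e-10). The groups did not overlap for either gene. Tubb4b, a widely expressed isotype, rose less, from 109 and 104 scaled CPM in Gel to 121 and 137 in CuNZ@Gel (log2 change 0.28, adjusted p = 0.00179). Without CuNZ@Gel replicate 2 its change was 0.19 and no longer passed. Tubb2b was at 2.74 and 1.59 scaled CPM in Gel and 4.77 and 5.37 in CuNZ@Gel (log2 change 0.96, adjusted p = 1.77e-04). Tubb4a, at 4.21 and 2.96 in Gel and 5.36 and 4.32 in CuNZ@Gel, did not pass (log2 change 0.36, adjusted p = 0.0879), and after the length correction it did (0.56, adjusted p = 0.0114). Tubg1, which encodes the gamma-tubulin that seeds microtubules, fell from 51.0 and 49.2 scaled CPM to 36.2 and 37.2 (log2 change -0.44, adjusted p = 1.17e-04).

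**Figure D3:**
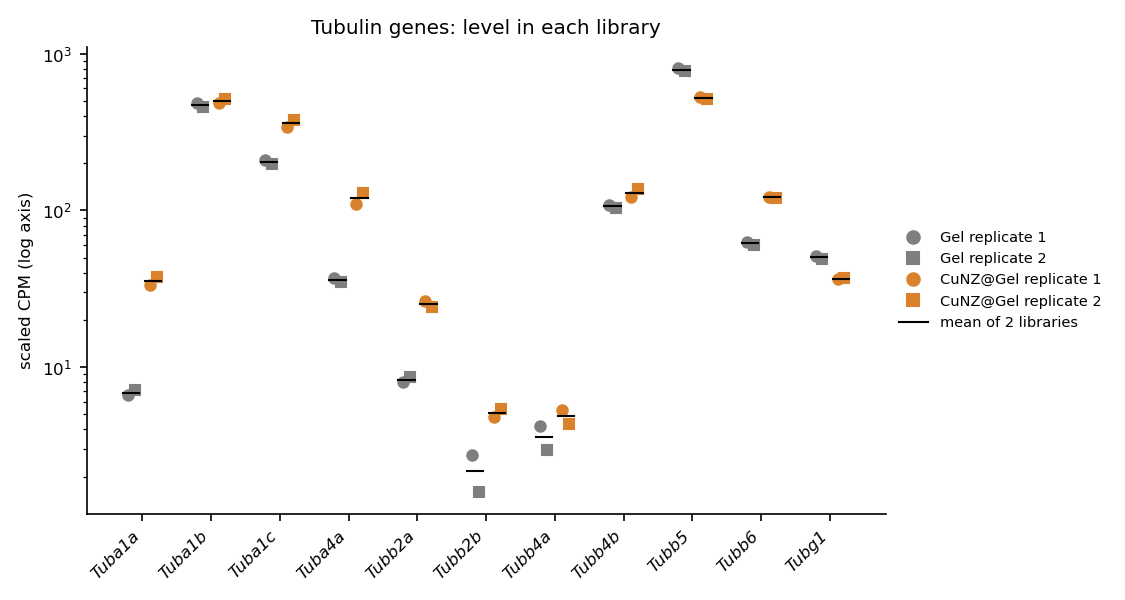
Level of each tested tubulin gene in each library in scaled CPM (log axis), with circles for replicate 1, squares for replicate 2 and a bar for the mean of the 2 libraries. Tuba1a, Tuba4a, Tubb2a and Tubb6 were higher in both CuNZ@Gel libraries, while Tubb5 fell from 807 and 771 to 530 and 513.

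Summed over isotypes, alpha-tubulin and beta-tubulin went opposite ways. The alpha-tubulin genes together were at 737 and 695 scaled CPM in Gel and 969 and 1057 in CuNZ@Gel, and the beta-tubulin genes at 994 and 949 in Gel and 811 and 805 in CuNZ@Gel. Neither sum overlapped between the groups, and 2 libraries against 2 cannot reach an exact permutation p below 0.333. With total reads only, the beta sum was 931 and 889 CPM in Gel and 864 and 860 in CuNZ@Gel, a smaller gap in the same direction. All tubulin genes together were at 1783 and 1694 scaled CPM in Gel and 1817 and 1900 in CuNZ@Gel.

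Per kilobase of transcript, Tuba1b made up 69.4% and 69.2% of the alpha-tubulin level in the Gel libraries and 55.0% and 53.3% in the CuNZ@Gel libraries. Tuba1c went from 26.4% and 26.5% to 33.8% and 34.6%, and Tuba4a from 3.24% in both to 7.57% and 8.28%. Tuba1a stayed the smallest of the 4 tested isotypes, at 0.914% and 1.04% in Gel and 3.64% and 3.78% in CuNZ@Gel. On the beta side, Tubb5 held 73.1% in both Gel libraries and 54.6% and 52.7% in CuNZ@Gel. Tubb6 held 8.62% and 8.64% in Gel and 19.0% and 18.5% in CuNZ@Gel, and Tubb4b 16.3% in both and then 20.7% and 23.4%. The most abundant isotype on each side therefore held a smaller share in both CuNZ@Gel libraries.

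**Figure D4:**
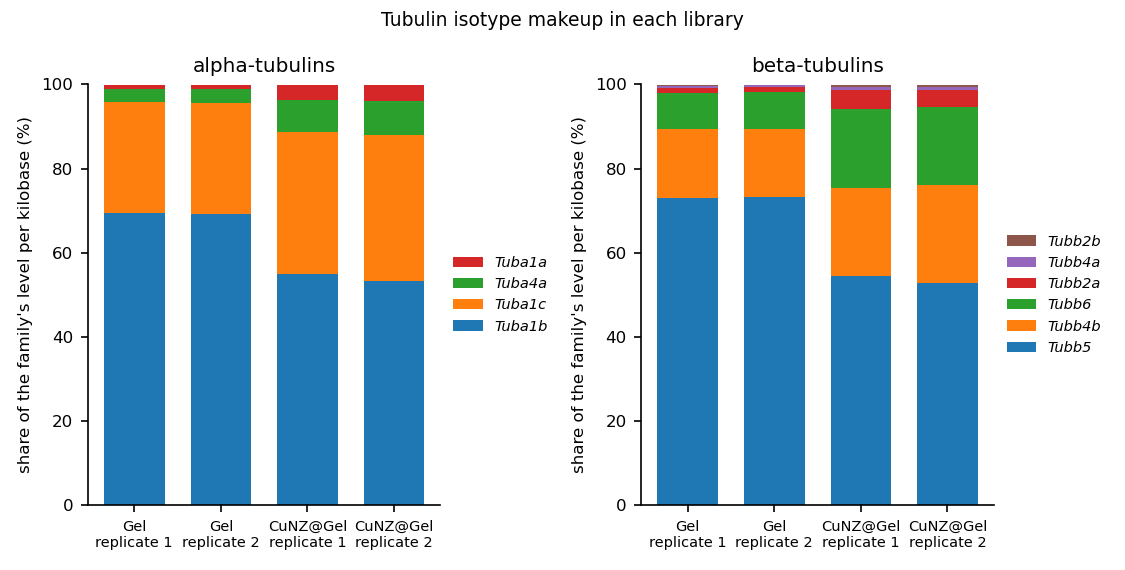
Share of each isotype in the summed level per kilobase of the alpha-tubulins and the beta-tubulins, in percent, with 1 stacked bar per library. Tubb5 held 73.1% in both Gel libraries and 54.6% and 52.7% in the CuNZ@Gel libraries, and Tuba1b also held less there.

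Shared sequence limits the separation of these isotypes. Of the 50-base stretches of each transcript, 72.9% for Tuba1a, 73.8% for Tuba1b and 61.0% for Tuba1c also occurred in transcripts of other genes, mostly of each other or their pseudogenes. For Tubb2a it was 49.6%, most of it with Tubb2b, and for Tubb4b 50.9%, most of it with the pseudogene Tubb4b-ps1. The way the submitters divided such reads is not given in the sources used here, so the values of these 5 genes and of Tubb2b (39.3%) are uncertain. Tuba4a (1.11%), Tubb5 (0.115%) and Tubb6 (0%) shared little or nothing, and their changes were 1.70, -0.60 and 0.96.

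The cytoplasmic actins did not pass the test, while smooth-muscle actin rose from near the detection limit. Actb, the beta cytoplasmic actin often used as a reference gene, was at 2928 and 2812 scaled CPM in Gel and 2698 and 2638 in CuNZ@Gel. Its log2 change was -0.10 (adjusted p = 0.151), and the direction was the opposite with total reads only (0.08) and after the length correction (0.04). Actg1, the gamma cytoplasmic actin, was at 927 and 956 scaled CPM in Gel and 923 and 916 in CuNZ@Gel, with a change of -0.03 (adjusted p = 0.615). Its level is uncertain, because 56.7% of its 50-base stretches occur in other genes, mainly Gm12715. After the length correction Actg1 was raised (0.12, adjusted p = 0.0261), and with total reads only its change was 0.15 and passed as well. Per kilobase, Actb made up 76.2% and 74.9% of the actin level in Gel and 74.6% and 74.3% in CuNZ@Gel. Actb and Actg1 together took 0.361% and 0.353% of the reads in Gel and 0.386% and 0.380% in CuNZ@Gel.

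Acta2, which encodes the smooth-muscle alpha-actin of contractile cells, was at 0.218 and 0.857 scaled CPM in Gel and 9.20 and 10.9 in CuNZ@Gel. Summed over a group, that was 14 reads for Gel against 317 for CuNZ@Gel. The ratio was 19.1, and its exact 95% interval from counting ran from 11.2 to 35.3. The Gel libraries differed from each other, and the ratio of means was 11.7 without Gel replicate 1 and 46.1 without Gel replicate 2. The log2 change was 2.87 (SE 0.20, adjusted p = 7.81e-11). Per kilobase, Acta2 was at 4.93 in CuNZ@Gel, against 1389.6 for Actb and 471 for Actg1. Of 9 muscle markers 0 passed the filter: their summed level was 0.856 to 1.16 scaled CPM in Gel and 2.14 to 2.22 in CuNZ@Gel, and Myod1, Myog and Tnnt2 were at 0 in all libraries. Of 8 fibroblast markers 1 was tested (Pdgfrb, raised, which passed the filter only through CuNZ@Gel and so could be called only as raised). The sums of the fibroblast markers were 0.545 to 0.58 scaled CPM in Gel and 1.27 to 1.51 in CuNZ@Gel, and Lum and Thy1 were at 0. Their part in the Acta2 values was not tested. Actn1, the alpha-actinin that links actin bundles to adhesions, rose 2.55-fold, from 116 and 115 scaled CPM in Gel to 297 and 291 in CuNZ@Gel (log2 change 1.34, SE 0.06, adjusted p = 7.58e-14). Actn4, its partner in non-muscle cells, was at 337 and 342 scaled CPM in Gel and 333 and 347 in CuNZ@Gel with a change of 0.00. With total reads only Actn4 was raised (0.19, adjusted p = 0.00852). Per kilobase, Actn1 accordingly held 26.3% and 25.8% of the Actn1 and Actn4 level in Gel and 48.1% and 46.6% in CuNZ@Gel.

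**Figure D5:**
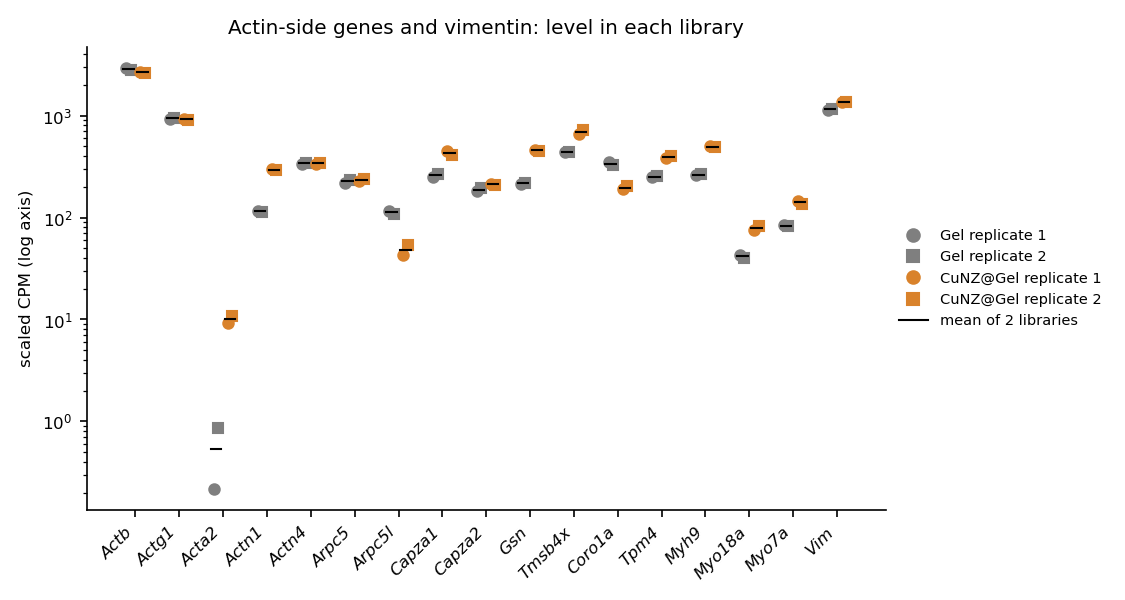
Level in each library, in scaled CPM on a log axis, of selected actin-side genes, with circles for replicate 1, squares for replicate 2 and a bar for the mean of the 2 libraries. Actb lies between 2638 and 2928 in the 4 libraries, whereas Acta2 is below 1 in Gel and at 9.20 and 10.9 in CuNZ@Gel.

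Many actin genes are known targets of serum response factor (SRF), whose binding motif is the CArG box, so promoters were searched for it on both strands (its ends are CC and GG). RefSeq promoter windows on build GRCm38.p6, from 250 bases before to 50 after a gene's start, were at hand for 53 of the 61 tested genes, in 65 windows. The CArG box occurred in 4 of the 65 (6.15%), against 1.63% of 32851 windows of all genes and 1.19% of 11554 windows of tested genes. The stretches around the 3 matches nearest to a start are shown, with the motif in capitals.
Actg1, chr11:120348551-120348610, minus strand: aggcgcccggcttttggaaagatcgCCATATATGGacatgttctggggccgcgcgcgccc
Myl6, chr10:128493025-128493084, minus strand: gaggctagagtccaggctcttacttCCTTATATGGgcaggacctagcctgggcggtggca
Myo1e, chr9:70207293-70207352, plus strand: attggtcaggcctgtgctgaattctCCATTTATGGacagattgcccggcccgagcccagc
The fourth match was in the window of Arpc4. Of these 4 genes, Myo1e rose (0.35) and the changes of Actg1, Myl6 and Arpc4, at -0.03, 0.07 and -0.03, did not pass the test. Only the strict motif, with A or T throughout between CC and GG, was searched. Acta2 had no match to it, and no window was at hand for Actb. A match is a run of letters, not a bound site. The motif TGACNNNGC, the core of the antioxidant response element, occurred on either strand in 10 of the 65 windows (15.4%), against 12.4% of all windows and 14.2% of those of tested genes. Srf itself had a change of 0.09 (adjusted p = 0.427), and after the length correction it was raised (0.37, adjusted p = 0.00161). Mrtfa, an actin-sensing coactivator of SRF, had a change of -0.04 (adjusted p = 0.705), and Mrtfb rose (0.77, adjusted p = 8.14e-06).

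Of the 9 subunit genes of the Arp2/3 complex, which nucleates branched filaments, 4 rose, 3 fell and 2 did not pass the test, with a median change of 0.05. These shares are near those over all tested genes (32.2% raised and 34.8% lowered). With total reads only, 6 rose and 1 fell, against 43.2% and 24.8% of all tested genes. In that fit Arpc1a (-0.05) and Arpc1b (0.02) did not pass, and Arpc5 and Arpc4 were raised (0.24 and 0.16). Arpc5l, an alternative form of the Arpc5 subunit, was at 116 and 109.5 scaled CPM in Gel and 42.5 and 54.3 in CuNZ@Gel. It fell 2.33-fold (log2 change -1.21, SE 0.09, limma adjusted p = 2.12e-10). Arpc5 was at 218 and 235 scaled CPM in Gel and 231 and 239.9 in CuNZ@Gel and did not pass (0.05, adjusted p = 0.467), though it was raised after the length correction (0.13, adjusted p = 0.0369). Per kilobase, the share of Arpc5l in the pair was 43.2% and 39.9% in Gel and 20.9% and 24.5% in CuNZ@Gel. Actr3, an actin-related subunit, went from 394 and 395 scaled CPM to 465 and 473 (0.25, adjusted p = 7.42e-04), with 49.8% of its 50-base stretches shared, mainly with Gm8822. Actr2, the other actin-related subunit, went from 445 and 463 to 541 and 515 (0.22, adjusted p = 0.00281). After the length correction Actr2 changed by 0.04 (adjusted p = 0.477), and without Gel replicate 1 by 0.19, neither past the threshold. Arpc3 was at 264 and 252 scaled CPM in Gel and 304 and 296 in CuNZ@Gel (0.22, adjusted p = 0.00315), and Arpc1b at 489 and 484 in Gel and 426 and 439 in CuNZ@Gel (-0.17, adjusted p = 0.0135). Arpc2, at 568 and 573 in Gel and 632 and 619 in CuNZ@Gel, rose by 0.13 (adjusted p = 0.0475), a call lost whichever library was left out (0.12 to 0.15). Arpc1a changed by -0.23 (adjusted p = 0.0234) and by -0.04 after the length correction, where it did not pass. The summed level of the 9 genes was 2753 and 2771 scaled CPM in Gel and 2886 in both CuNZ@Gel libraries.

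Genes for proteins that hold monomers or turn filaments over were split. Tmsb4x, thymosin beta 4, which sequesters actin monomers, was at 444 and 443 scaled CPM in Gel and 666 and 724 in CuNZ@Gel, a rise of 0.65 (SE 0.06, adjusted p = 6.02e-09). Per kilobase, Tmsb4x was at 577 in Gel and 905 in CuNZ@Gel, against 1495 and 1389.6 for Actb. Pfn1, profilin 1, which hands monomers to growing ends, was at 736 and 672 scaled CPM in Gel and 625 and 639 in CuNZ@Gel. Its change of -0.15 (adjusted p = 0.0313) became 0.04 with total reads only, which did not pass, and a rise of 0.23 after the length correction (adjusted p = 3.63e-04). Cfl1, the filament-severing cofilin, was at 989 and 926 scaled CPM in Gel and 829.6 and 904 in CuNZ@Gel. Its change of -0.14 (adjusted p = 0.0456) became 0.04 with total reads only and -0.06 after the length correction, neither past the threshold. Tmsb10, at 69.7 and 65.1 in Gel and 61.7 and 61.9 in CuNZ@Gel, changed by -0.12 (adjusted p = 0.163) and rose after the length correction (0.34). It shares 43.5% of its 50-base stretches with other genes. Cfl2, at 15.2 and 17.7 scaled CPM in Gel and 19.7 and 17.8 in CuNZ@Gel, did not pass (0.18, adjusted p = 0.181), though with total reads only it was raised (0.36).

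Of the 4 capping and severing genes 3 rose, where 32.2% of all tested genes rose. Gsn, gelsolin, which cuts filaments and caps their fast-growing ends, was at 216 and 218 scaled CPM in Gel and 465 and 453 in CuNZ@Gel. That is 2.11-fold (log2 change 1.08, SE 0.06, adjusted p = 1.25e-12), and both CuNZ@Gel libraries lay above both Gel libraries. Capza1 and Capza2 encode the alternative alpha subunits of capping protein. Capza1 went from 250.1 and 268 scaled CPM to 447 and 409.7 (0.72, adjusted p = 2.23e-09), although 73.8% of its 50-base stretches occurred in other genes, mainly Gm3608. Capza2 went from 181 and 193 to 215 and 211 (0.19, adjusted p = 0.0126). Capzb, the beta subunit of the same heterodimer, was at 274 and 252 scaled CPM in Gel and 241 and 259.7 in CuNZ@Gel and did not pass (-0.07, adjusted p = 0.344).

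All 3 type 1 coronins, which bind filaments and help to disassemble branches, fell, with a median change of -0.44. Of all tested genes 34.8% fell. Coro1a, the coronin known from macrophage phagosomes, was at 348 and 327 scaled CPM in Gel and 188 and 205 in CuNZ@Gel, 1.72-fold lower (log2 change -0.78, SE 0.06, adjusted p = 8.42e-10). Coro1b went from 120.0 and 112 scaled CPM to 83.6 and 86.7 (-0.44, adjusted p = 1.32e-05), and 20.8% of its 50-base stretches lie in the overlapping Ptprcap. Coro1c went from 222 and 223 to 195 and 185 (-0.23, adjusted p = 0.00279), and with total reads only its change of -0.04 did not pass. For each of the 3 genes both CuNZ@Gel libraries were below both Gel libraries. Groups lay apart, in either direction, in 55 of the 61 cytoskeletal genes, and how often they did over all genes was not counted. It therefore adds little to the tests of the coronins.

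The 3 tested tropomyosins, rod-shaped proteins that lie along filaments and govern what binds there, all rose, where 32.2% of all tested genes rose. Tpm4 was at 249 and 253 scaled CPM in Gel and 385 and 398 in CuNZ@Gel (0.64, adjusted p = 5.49e-09), and Tpm1 at 144 and 131 in Gel and 195 and 198 in CuNZ@Gel (0.51, adjusted p = 7.92e-07). Tpm3, the highest of them per kilobase, went from 658 and 619 to 750.2 and 813 (0.29, adjusted p = 2.92e-04). Of its 50-base stretches, 62.4% occur in other genes, mainly Tpm3-rs7, which leaves its level uncertain. Tpm2 had 12 reads in Gel and 7 in CuNZ@Gel and was not tested.

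Among the genes of non-muscle myosin II, the motor of contractile actin bundles, the heavy chain Myh9 rose and the 4 tested light chains did not pass the test. Myh9 was at 259 and 267 scaled CPM in Gel and 499 and 488 in CuNZ@Gel, 1.88-fold higher (log2 change 0.90, SE 0.06, adjusted p = 1.83e-11). The regulatory light chain genes Myl12a (136 and 139 in Gel, 129.5 and 145 in CuNZ@Gel) and Myl12b (229 and 219 in Gel, 209 and 209.5 in CuNZ@Gel) did not pass, at adjusted p of 0.95 and 0.161. The essential light chain Myl6 was at 168 and 141 in Gel and 151 and 172 in CuNZ@Gel, with groups that overlapped (0.07, adjusted p = 0.485). Myl6b was at 3.33 and 3.35 in Gel and 3.08 and 3.87 in CuNZ@Gel (0.04, adjusted p = 0.86). After the length correction Myl6 and Myl6b were raised, by 0.45 and 0.47 (adjusted p = 9.73e-06 and 0.0224), and Myh9 by 0.68. With total reads only Myl6 and Myl12a were raised, by 0.25 and 0.18. Myl6 shares 53.2% of its 50-base stretches with other genes.

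Unconventional myosins, many of which move membranes and organelles along actin, rose in most cases. Of 15 tested genes 13 rose, 1 fell and 1 did not pass, with a median change of 0.49, where 32.2% of all tested genes rose and 34.8% fell. Without Myo5c, Myo6 and Myo7b, which passed the filter only through CuNZ@Gel, 10 of 12 rose with a median change of 0.36. After the length correction 10 of the 15 rose and 1 fell. Myo7a, which serves phagosome movement in some cells, was at 84.3 and 82.0 scaled CPM in Gel and 146 and 136 in CuNZ@Gel (log2 change 0.75, SE 0.07, adjusted p = 5.22e-09). Myo18a went from 43.3 and 39.8 to 75.6 and 83.0 (0.92, adjusted p = 3.43e-09). Myo10, the motor of filopodial tips, went from 34.9 and 37.6 to 57.8 and 50.7 (0.57, adjusted p = 1.16e-05). The groups did not overlap for any of the 3. Myo6, the motor that walks towards the slow-growing end, had 16 reads in Gel and 111 in CuNZ@Gel. The ratio was 5.845, with an exact 95% interval of 3.44 to 10.6 (levels of 0.435 and 0.779 scaled CPM in Gel and 3.91 and 3.11 in CuNZ@Gel, adjusted p = 1.75e-06). Myo7b had 18 and 87 reads, a ratio of 4.07 with an interval from 2.43 to 7.19 (0.798 and 0.545 scaled CPM in Gel and 2.52 and 2.98 in CuNZ@Gel, adjusted p = 3.41e-05). Myo5c had 7 and 59 reads, a ratio of 7.10 with an interval from 3.24 to 18.4, and of 12.0 without Gel replicate 1. These 3 genes were barely detected in Gel.

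Most of the other unconventional myosins rose too. Myo19, a mitochondrial motor, rose by 0.78, and the class I myosins Myo1e, Myo1f and Myo1g, which tether membrane to actin, rose by 0.35, 0.25 and 0.26. Myo5a, a carrier of vesicles, rose by 0.38 (adjusted p = 6.38e-05) but changed by 0.06 after the length correction (adjusted p = 0.301). The RhoGAP myosins Myo9a and Myo9b likewise rose by 0.49 and 0.26, and their corrected changes of -0.10 and 0.03 did not pass. Myo1d was the gene that fell, from 81.5 and 92.6 scaled CPM to 80.1 and 71.2 (-0.20, adjusted p = 0.0341), a narrow gap. With total reads only its change was -0.01 and did not pass. Myo1c did not pass (0.10, adjusted p = 0.236), though with total reads only it was raised (0.29). Vim, vimentin, the intermediate filament protein of macrophages and mesenchymal cells, was at 1142 and 1169.6 scaled CPM in Gel and 1349 and 1357 in CuNZ@Gel, a rise of 0.23 (SE 0.06, adjusted p = 0.00186).

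The smallest called changes depended on single libraries. Without Gel replicate 1, Pfn1 (-0.09), Cfl1 (-0.10), Capza2 (0.14), Arpc1a (-0.25) and Arpc1b (-0.16) no longer passed. Without Gel replicate 2, Cfl1 (-0.19), Arpc1a (-0.21), Arpc1b (-0.18), Arpc3 (0.19), Myo1d (-0.11), Myo1g (0.21) and Myo9b (0.20) no longer passed. Without CuNZ@Gel replicate 1, the same was true of Cfl1 (-0.08), Pfn1 (-0.14), Arpc1b (-0.15), Capza2 (0.17), Myo1g (0.21), Myo9a (0.27) and Myo9b (0.16). Without CuNZ@Gel replicate 2, it held for Pfn1 (-0.17), Arpc1a (-0.17) and Myo1d (-0.12). Of the 46 called genes, 28 were tested under each alternative and kept their direction and call in all of them except the minimum fold. A further 3, Myo5c, Myo6 and Myo7b, did so where they were tested and did not pass the filter at 5.

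The 30 genes that were not tested reached at most 1.14 scaled CPM, and 8 of them were at 0 in all libraries (Myl10, Myl3, Myl7, Myo15a, Myo3a, Myo3b, Tuba3a and Tuba3b). A count of 0 allows up to 0.234 scaled CPM per library. The striated-muscle alpha-actinin Actn2 had 2 reads in Gel and 32 in CuNZ@Gel, a ratio of 13.5 with an interval from 3.44 to 116. Pfn2, profilin 2, had 1 and 26 reads, a ratio of 21.9 with an interval from 3.60 to 898, and its single Gel read was in replicate 2. Tubg2, the other gamma-tubulin gene, had 24 and 13 reads, a ratio of 0.456 with an interval from 0.213 to 0.933. These intervals cover counting error only, and the genes were named after their values were seen.

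Regulators of actin showed more rises than falls in some groups and not in others. Of 22 tested nucleation-promoting factors and formins 14 rose and 4 fell (median change 0.34, and 0.19 after the length correction, against -0.03 for all tested genes, of which 32.2% rose and 34.8% fell). Diaph1, a formin that builds unbranched filaments, rose by 1.30, and Inf2, another formin, by 1.14. Nckap1l and Cyfip1, subunits of the WAVE complex that activates Arp2/3, rose by 1.08 and 0.89. Other WAVE subunit genes, added after their values were seen, went differently: Brk1 and Abi3 fell (-0.40 and -0.53), Abi1 rose by 0.19, and Wasf2 and Cyfip2 did not pass (-0.04 and 0.09). After the length correction Brk1 (-0.14) and Abi1 (0.07) did not pass, while Wasf2 was lowered (-0.21, adjusted p = 0.0286). Of 25 tested crosslinkers, cappers and turnover factors outside the symbol rule 17 rose and 3 fell (median 0.35). Pls3, the bundling protein plastin 3, rose by 1.88, with 38.7 ± 1.65 scaled CPM (SD, n = 2) for Gel and 145 ± 7.07 for CuNZ@Gel. Msn, the membrane linker moesin, rose by 1.02 and Marcksl1 by 1.13. Of 17 tested integrin adhesion and podosome genes 9 rose and 2 fell. Among them were the kinases Ptk2b (1.31) and Src (1.57), talin Tln1 (0.79) and Lims1 (0.84). The limma adjusted p of these 11 genes was at most 2.77e-09.

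Of 12 tested myosin regulators 4 rose and 2 fell, a raised share near the 32.2% of all tested genes. The kinases Rock1 and Rock2 rose by 0.61 and 0.69, and Ppp1r12c fell by 0.45. Among 13 tested genes of SRF, its coactivators and targets outside the rule, 5 rose and 5 fell. The immediate early genes Ier2, Egr1 and Egr2 changed by -1.79, -1.03 and -1.58, and Mical2, an actin oxidoreductase, by 1.16. Those 3 early genes are targets of other pathways as well.

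On the microtubule side, 16 of 27 tested associated proteins and motors rose and 6 fell (median 0.28, and 0.11 after the length correction, where 32.2% of all tested genes rose and 34.8% fell before it). Stmn1, stathmin, which binds tubulin dimers and promotes disassembly, had a change of -1.08, with 257 ± 17.3 scaled CPM (SD, n = 2) for Gel and 121 ± 9.19 for CuNZ@Gel. The kinesins Kif1b and Kif5b rose by 1.28 and 0.80, and the dynein heavy chain Dync1h1 by 0.82. Of 24 tested genes for tubulin folding, modification and the gamma-tubulin ring complex, 8 rose and 9 fell (median 0.07), shares near those of all tested genes. Arl2, a GTPase of tubulin assembly, and Tubd1, delta-tubulin, fell by 1.23 and 0.92, and Ttll12 and Tubgcp4 rose by 0.81 and 0.62. Ttc5, whose product recognises nascent tubulin, did not pass the test (0.25, adjusted p = 0.0801), and after the length correction it was raised (0.40, adjusted p = 0.00594). Of 12 tested septins and further intermediate filament genes 6 rose and 4 fell. Among the raised genes, Septin1 passed the filter only through CuNZ@Gel and so could be called only as raised. The tested septins had no matched transcript, so no length-corrected change is given for them. Plec, the cytolinker plectin, rose by 1.21 and Lmnb1, lamin B1, fell by 0.91, and Septin7 and Septin2 rose by 0.70 and 0.51.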

How the data were processed

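RNA sequencing libraries of RAW264.7 cells were compared, 2 of them named Gel and 2 named CuNZ@Gel by their titles. Per the labels' protocols, TaKaRa RNAiso Plus served for extraction and the CORALL RNA-seq V2 kit for the libraries. The submitters' processing notes list GATK, fastp, STAR and Salmon and the build GRCm39. For the part each tool played, its version, the gene annotation, strand handling and normalization, nothing is given in the sources used here. Reads of a gene and of an antisense partner may therefore not be separated.

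The deposited files hold 1 log2 value per gene symbol and library. From the values, each was log2(x + 1) with x the CPM divided by 1 further factor per library (0.937, 0.936, 1.07 and 1.07 for Gel replicates 1 and 2 and CuNZ@Gel replicates 1 and 2). Among values up to 1, between 92.6% and 93.5% fell within 0.02 reads of a whole number of reads, which gave the reads behind each value. A count of 0 allows up to 3 reads, which is 0.189 to 0.234 scaled CPM. Such limits and the 95% counting intervals cover counting error only.

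limma 3.58.1 in R 4.3.3 was fitted to genes that reached 1 scaled CPM in 2 or more libraries, on the deposited log2 values (pseudocount 1), with a variance trend, the group as the only term and Benjamini-Hochberg adjustment over all tested genes at a threshold of 0.05. The procedure was tested on simulated data. A count-based test planned on the recovered reads was not run, since count models were kept to deposited counts. Alternatives were total reads only, relative log expression factors, no filter, a filter at 5, a pseudocount of 0.1, a minimum fold of 1.5, each library left out, the replicate number as a block, and smooth terms for log2 transcript length and GC content removed from each library (mgcv 1.9.3). Length, GC content and shared 50-base stretches came from 1 GENCODE vM21 transcript per gene. Its build, GRCm38, differs from that of the files, so no coordinates were joined. A transcript was found for 94.0% of the tested genes. limma-voom on the recovered reads, in its place, and a crossed block were added after the data were seen.

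The genes and lists were chosen with earlier results of these data known. Library values were named for the 5 genes of smallest p in each role, the 10 genes of highest level, and all tested actins, tubulins and vimentin, and from each list the 4 of smallest p, of which some are not reported here.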

Additional observations from a re-analysis of the deposited data

How the results depend on the processing

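Of the 46 called cytoskeletal genes, 28 were tested under every alternative and kept their direction and call in each except the minimum fold of 1.5. Myo5c, Myo6 and Myo7b did so as well but were not tested with the filter at 5. The minimum fold left 1015 raised and 940 lowered genes in all and 13 and 2 cytoskeletal genes. With total reads only, the cytoskeletal genes had a median change of 0.43 and 5 were lowered. The median was 0.27 with relative log expression factors, 0.19 without a filter, 0.22 with the filter at 5 and 0.28 after the length and GC correction. When each library was left out in turn, 30 to 33 cytoskeletal genes were raised and 7 to 8 lowered, with a median of 0.21 to 0.25, and 3096 to 3411 of all genes were raised and 3419 to 3653 lowered. Each such fit leaves 1 group with a single library, which is assumed to vary like the other group.

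Same-numbered libraries share only a number, and their deviations correlated at -0.12. With the replicate block 3589 genes were raised and 3900 lowered, 33 and 7 of them cytoskeletal. Under the block the calls of Arpc1b, Arpc2, Capza2, Cfl1, Myo1d and Pfn1 were lost. Pairing the libraries crosswise gave 4030 raised and 4340 lowered genes, 36 and 13 of them cytoskeletal. limma-voom on the recovered reads, also added after the data were seen, gave 3706 and 4026, with 35 and 11 cytoskeletal.

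Some directions turned. With total reads only, Cfl1 (0.044), Pfn1 (0.035), Arpc1b (0.019), Actb (0.084), Actg1 (0.15), Arpc4 (0.16), Capzb (0.12), Myl12a (0.18), Myl12b (0.090) and Tmsb10 (0.064) were above 0. After the length and GC correction so were Pfn1 (0.23), Actb (0.035), Actg1 (0.12), Arpc4 (0.093), Capzb (0.11), Myl12a (0.12), Myl12b (0.029) and Tmsb10 (0.34), while Myo9a went from 0.49 to -0.10. Myl12a was at 0.017 with relative log expression factors, and with a library left out it ranged from -0.0855 to 0.0745, with 0.013 without Gel replicate 2. Myl6 was at -0.0625 without Gel replicate 2 and -0.0315 without CuNZ@Gel replicate 2, Myl6b ranged from -0.0895 to 0.1665 with a library left out (its lowest value without CuNZ@Gel replicate 2), and Arpc5 was at -0.0015 without Gel replicate 1. The cause of these shifts was not tested. Depth limits the genes with few reads, whose counting intervals stand beside them.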
